A study of Homo sapiens with 8 samples.

Results

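The Hippo pathway controls growth through the co-activators YAP and TAZ, which do not bind DNA themselves and act through the TEAD family of DNA-binding factors. The kinases LATS1 and LATS2 phosphorylate YAP and TAZ and keep them out of the nucleus, and VGLL4 competes with them for TEAD. Several genes of the pathway are known in other cells to be under the control of YAP and TEAD, LATS2 among them. In pluripotent cells TEAD4 and its co-activators have been studied together with the activin and Nodal signal transducer SMAD2.

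Called regions near 7 genes of this pathway were described: the co-activator genes YAP1 and WWTR1 (which encodes TAZ), the kinase genes LATS1 and LATS2, the factor genes TEAD1 and TEAD4, and VGLL4. Members were all regions with at least 1 bp inside a gene body or within 50 kb of it on hg19, a rule that uses position alone. They numbered 676 of 972037 called regions: 201 of 289380 in the TEAD4 list of DMSO cells, 206 of 262109 in the TEAD4 list of SB431542 cells and 269 of 420548 in the SMAD2 list of DMSO cells. The 7 windows together spanned 1.71 Mb.

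The lists come from chromatin immunoprecipitation and sequencing in WA09, an established line of human embryonic stem cells, kept on Matrigel in medium with KO serum that MEF had conditioned. Control cells were given DMSO, the solvent, and treated cells 10 µM SB431542, both for 4 h. SB431542 blocks the type I receptors for activin, Nodal and TGF-β, which act through SMAD2. The labels name 8 samples, with input DNA, normal rabbit IgG, a TEAD4 antibody or a SMAD2 antibody under each treatment. There was 1 library for each, and input DNA, IgG and SMAD2 under SB431542 were not analysed here, so the lists are described with no background of their own. With 1 library a group, no replicate error and no p-value can be given, and the 95% Wilson intervals below cover counting error over regions only.

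Each list holds positions without a score, so a region is described by where it lies, how wide it is, its row in its list, and the regions of the other lists that it overlaps by at least 1 bp. Low rows are taken as the strongest calls, which the files do not state. Rows are also coarser than they look. Long stretches of consecutive rows run in falling order of chromosome name and position. Such runs held up to 11104 rows (3.84%) of the TEAD4 list of DMSO cells, 8992 rows (2.14%) of the SMAD2 list and 1780 rows (0.679%) of the TEAD4 list of SB431542 cells. Rows within a run need not differ in strength, and 98 of the 201 TEAD4 members of DMSO cells lie in runs of more than 1% of the list. The 6 TEAD4 regions over gene starts lay in runs of 1 to 5 rows, such as rows 60 to 62 around LATS2. Other high regions named below lay in longer ones, of 181 rows around LATS1 row 2385 and of 1005 rows around row 7756 of the SB431542 list. WWTR1 row 10287 and VGLL4 row 10355 share a run of 1063 rows, so their order says nothing. The TEAD4 lists also differ in making, since all starts of the DMSO list lie on a 50 bp grid and 1.97% of those of the SB431542 list do. Treatment and list type therefore cannot be told apart.

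The start of LATS2, that of TEAD1 and that of TEAD4 itself lay inside TEAD4 regions from the top of the list. The LATS2 start was covered by row 62 of the DMSO list (chr13:21635501-21635949, 449 bp wide). Counted along the gene with its first base as 0, this region reached from -227 to 221 bp. Row 130 covered the start of TEAD1 (chr11:12695751-12696149, 399 bp wide), from -218 to 180 bp. Row 186 covered the start of TEAD4 (chr12:3068351-3068799, 449 bp wide), from -126 to 322 bp. Thus 3 of the 201 members stood in the first 200 rows (1.49%), a part of the list that holds 0.0691% of all its regions. Another member, inside TEAD1, brought the number in the first 1000 rows to 4 (1.99%), where 0.346% of the whole list lies. How often the starts of other genes lie in such rows was not analysed here, so it is not known whether these counts are particular to the pathway.

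Under SB431542 the same 3 gene starts were again inside TEAD4 regions. The LATS2 start was covered by row 613 (chr13:21635563-21635848, 286 bp wide), the TEAD1 start by row 765 (chr11:12695829-12696097, 269 bp) and the TEAD4 start by row 823 (chr12:3068446-3068727, 282 bp). Each of these regions lay wholly inside its DMSO partner, and the midpoints were 19.5, 13 and 11.5 bp apart. The 3 regions were 1.46% of the members in that list, against 0.382% of all its regions in the first 1000 rows. Being called under both treatments did not set them apart, since 99% of the first 200 DMSO rows had a partner in the SB431542 list.

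SMAD2 was not called over any of the 7 gene starts. How often SMAD2 regions cover the starts of other genes was not analysed here, so it is not known whether this is particular to these genes. The nearest SMAD2 region was 601 bp from the TEAD4 region at the TEAD4 start (row 156060 of the SMAD2 list), 3.55 kb from that at the TEAD1 start (row 112905) and 19.3 kb from that at the LATS2 start (row 130620).

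**Figure D1:**
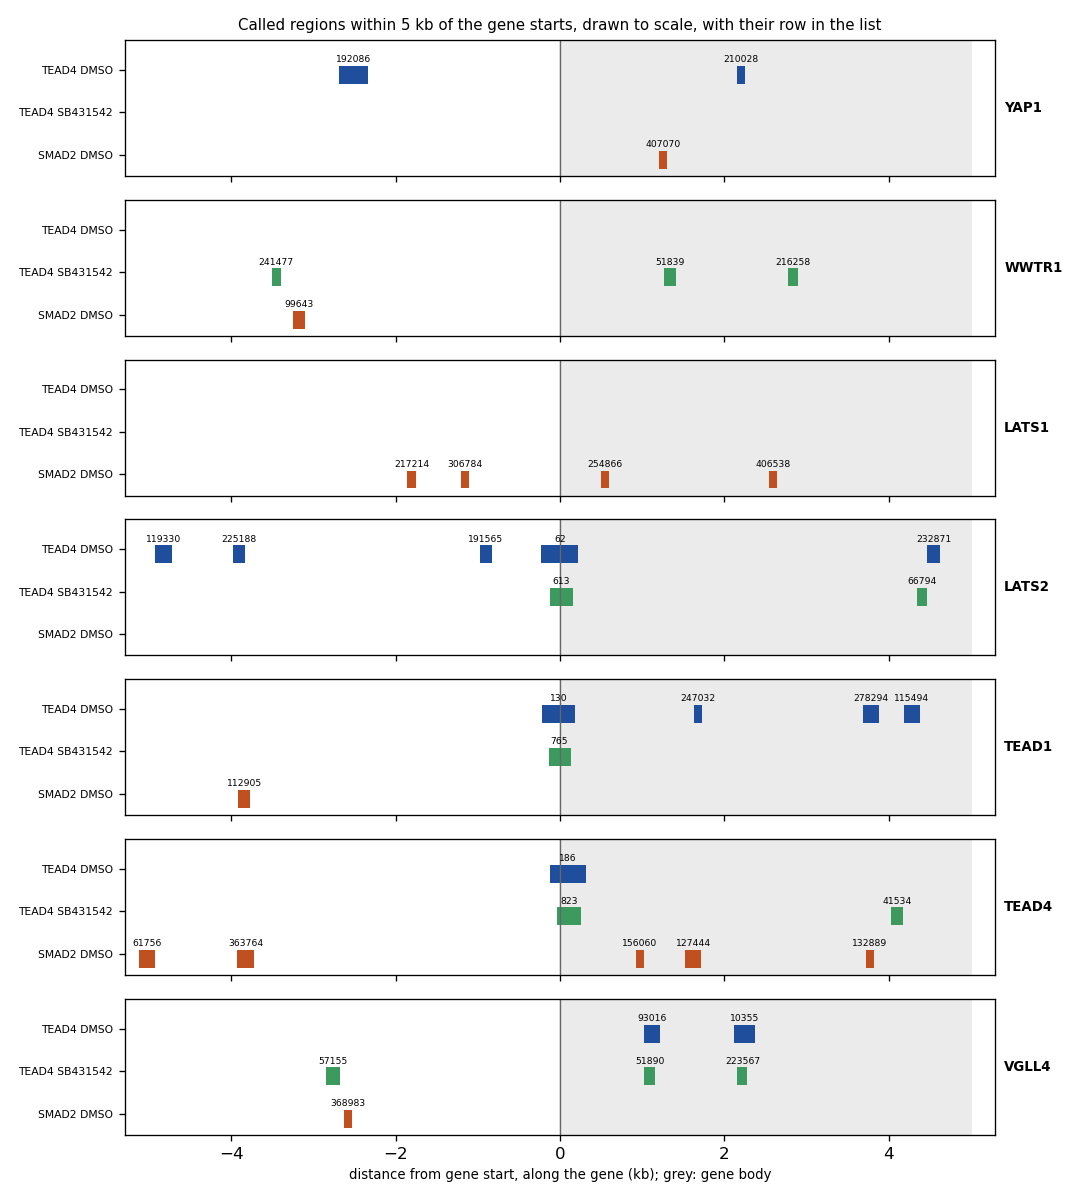
Called regions within 5 kb of the start of each gene, drawn to scale on a horizontal axis in kb along the gene, with 1 line per list and the row of each region printed above it. TEAD4 regions from the top rows straddle the starts of LATS2 (rows 62 and 613), TEAD1 (130 and 765) and TEAD4 (186 and 823), and no region covers the other starts.

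The other 4 genes had no TEAD4 region over their start, as drawn in the plot of regions within 5 kb. VGLL4 came closest. A TEAD4 region 1.1 kb inside the gene (chr3:11761001-11761199, row 93016) had an SB431542 partner at row 51890. A second one 2.2 kb inside it (chr3:11759851-11760099, row 10355) had a partner at row 223567, near the end of that list. For YAP1 the regions nearest to the start were of low standing, row 192086 at -2691 to -2343 bp and row 210028 at 2159 to 2257 bp, and neither had a partner. No TEAD4 region of the SB431542 list lay within 5 kb of the YAP1 start. At WWTR1 the nearest TEAD4 region of DMSO cells was 15.3 kb from the start, while SB431542 cells had one 1.27 kb inside the gene (row 51839). At LATS1 the distance was 10.1 kb in DMSO and 5.02 kb in SB431542, although 4 SMAD2 regions lay within 5 kb of that start, the highest at row 217214.

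RefSeq promoter sequences were at hand for 5 of the 7 genes: YAP1, WWTR1, LATS1, LATS2 and VGLL4. They are on GRCh38.p14 and were matched by symbol, not by position. The gene body of LATS2 is 88552 bp long in hg19 as used here and 88551 bp in RefSeq, that of YAP1 122963 and 122978 bp. LATS2 and YAP1 are shown because both promoters hold the core TEAD motif GGAATG, while only the LATS2 start was inside a TEAD4 region. Each sequence reads 5′ to 3′ on the strand of the gene and gives 250 bases before the start and 30 from it on, with the motif in capitals.
LATS2 (GRCh38.p14, chr13:21061557-21061836, minus strand): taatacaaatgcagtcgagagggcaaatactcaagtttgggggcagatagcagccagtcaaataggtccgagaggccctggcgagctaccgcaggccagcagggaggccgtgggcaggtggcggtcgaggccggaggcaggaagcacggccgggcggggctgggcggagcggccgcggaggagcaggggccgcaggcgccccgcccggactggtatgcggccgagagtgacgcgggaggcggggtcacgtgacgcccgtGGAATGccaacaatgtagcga
YAP1 (GRCh38.p14, chr11:102110197-102110476, plus strand): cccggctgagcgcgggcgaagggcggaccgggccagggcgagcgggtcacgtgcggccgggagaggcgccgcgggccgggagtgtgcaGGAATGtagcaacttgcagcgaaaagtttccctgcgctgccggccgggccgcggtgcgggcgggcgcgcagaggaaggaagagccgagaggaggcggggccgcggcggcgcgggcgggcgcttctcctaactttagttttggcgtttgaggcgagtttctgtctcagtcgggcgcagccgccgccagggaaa

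The motif stood at bases 10 to 15 of the LATS2 gene, counted from 1 at its start, and 157 to 162 bases before the YAP1 start. If the hg19 and RefSeq starts of LATS2 coincide, its motif lies inside both TEAD4 regions over that start. Searched on both strands as GGAATG or CATTCC, the motif was present in 2 of the 11 promoter entries of the 5 genes, and in 14% of all 35116 promoters of 300 bases. The SMAD-type word CAGACA (or TGTCTG) was present in 1 entry of VGLL4 and 1 of WWTR1, and in 16.9% of all promoters. The palindrome GTCTAGAC was in none of the 11 and in 0.202% of all. A match is a run of letters and not a measured site.

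TEAD1, the longest of the 7 genes, had the largest number of TEAD4 regions high in the DMSO list. Of its 56 TEAD4 regions in DMSO, 12 (21.4%, 12.7 to 33.8%) were in the first 10% of rows, where 10% of any list lies. LATS1 had the same share with 3 of 14 (7.57 to 47.6%), and in the SB431542 list TEAD1 had 5 of 60 (8.33%, 3.61 to 18.1%). The 3 highest lay within 14.3 kb at the 5′ end of the gene. After row 130 over the start came row 498, 6.3 kb inside the gene (chr11:12701951-12702599), and row 1724, 13.8 kb inside (chr11:12709501-12710099). These last are 649 and 599 bp wide, against a median of 199 bp for the whole list. All 3 had an SB431542 partner, but its standing varied, from row 765 over the start to row 70560 (26.9% down the list) for the second and row 12861 for the third. Further into the body, row 4136 (chr11:12915451-12915849) was paired with row 228651 of the SB431542 list, and rows 5339, 6197 and 8038 had no partner.

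LATS1 differed from its paralog LATS2 in where its leading regions lay. Its highest TEAD4 region of DMSO cells was row 2385 (chr6:150022651-150022949), 16.6 kb inside the gene. The next, row 4817 (chr6:150004701-150005599), was 34.2 kb inside and, at 899 bp, the widest TEAD4 region of DMSO cells near any of the 7 genes. Neither overlapped a region of another list, and the nearest TEAD4 regions of SB431542 cells were 6.94 and 7.96 kb away. None of the 14 TEAD4 regions at LATS1 was called again under SB431542, where 9 regions were called in the window. In the whole list 5.69% were called again, which is under 1 region in 14, so this count does not set LATS1 apart. A count of 0 allows up to 3 of the total, here a share of up to 21.4%. LATS2 held 18 TEAD4 regions in DMSO, and the one over its start was its only region in the first 10% of rows.

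YAP1, the gene of the best known TEAD co-activator, had 30 TEAD4 regions in DMSO and none high in the list. All of them lay beyond the first 10% of rows, for which 3 of 30 allows a share of up to 10% and the Wilson interval one of up to 11.4%. Either limit includes the 10% of any list. Their median row was 64.8% down the list, against 45.3% for the members of all 7 genes. The highest, row 40308 (chr11:102132301-102132799), lay downstream of the gene and overlapped a SMAD2 region at row 263843. WWTR1, which encodes the second co-activator, had 5 of 34 TEAD4 regions in the first 10% of rows (14.7%, 6.45 to 30.1%). Its highest, row 10287 (chr3:149369901-149370149), was 84.5 kb inside the gene with no partner.

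A site 33.8 kb upstream of WWTR1 had high regions of all 3 lists on it or close beside it. Here the TEAD4 region of DMSO cells at chr3:149488151-149488549 (row 13681) overlapped the highest SB431542 region of this gene (chr3:149488396-149488593, row 7756). A SMAD2 region at row 22151 (chr3:149487851-149488099) ended 51 bp short of the first of these. All 3 rows are within the first 10% of their lists. How often such neighbours occur in the whole lists was not analysed here. COMMD2 is the next protein-coding gene on that side in RefSeq (GRCh38.p14 order), and which gene the site acts on was not tested.

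Upstream of TEAD4 stood the highest SMAD2 region of all 269 members. It was row 55 of 420548 (chr12:3021001-3021299), 47.3 kb before the TEAD4 start and therefore close to the edge of the window, on the side of the neighbouring gene TULP3. It had no TEAD4 partner in DMSO, but overlapped row 5941 of the SB431542 list (chr12:3021117-3021314) by 183 bp. At the TEAD4 gene, as at the others, the leading SMAD2 region did not overlap a leading TEAD4 region. The leading SMAD2 regions of the other 6 genes stood lower in the list. They were row 2124 at VGLL4 (chr3:11610451-11610699), row 2253 at TEAD1 (chr11:12893351-12893649), row 3526 at WWTR1 (chr3:149491601-149491849), row 4302 at YAP1 (chr11:102007751-102007999), row 7387 at LATS1 (chr6:149944601-149944899) and row 41288 at LATS2 (chr13:21670201-21670549). None of these 6 overlapped a TEAD4 region of either treatment. In the whole SMAD2 list 5.29% overlapped TEAD4 of DMSO cells and 3.39% TEAD4 of SB431542 cells, so this count does not set them apart.

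**Figure D2:**
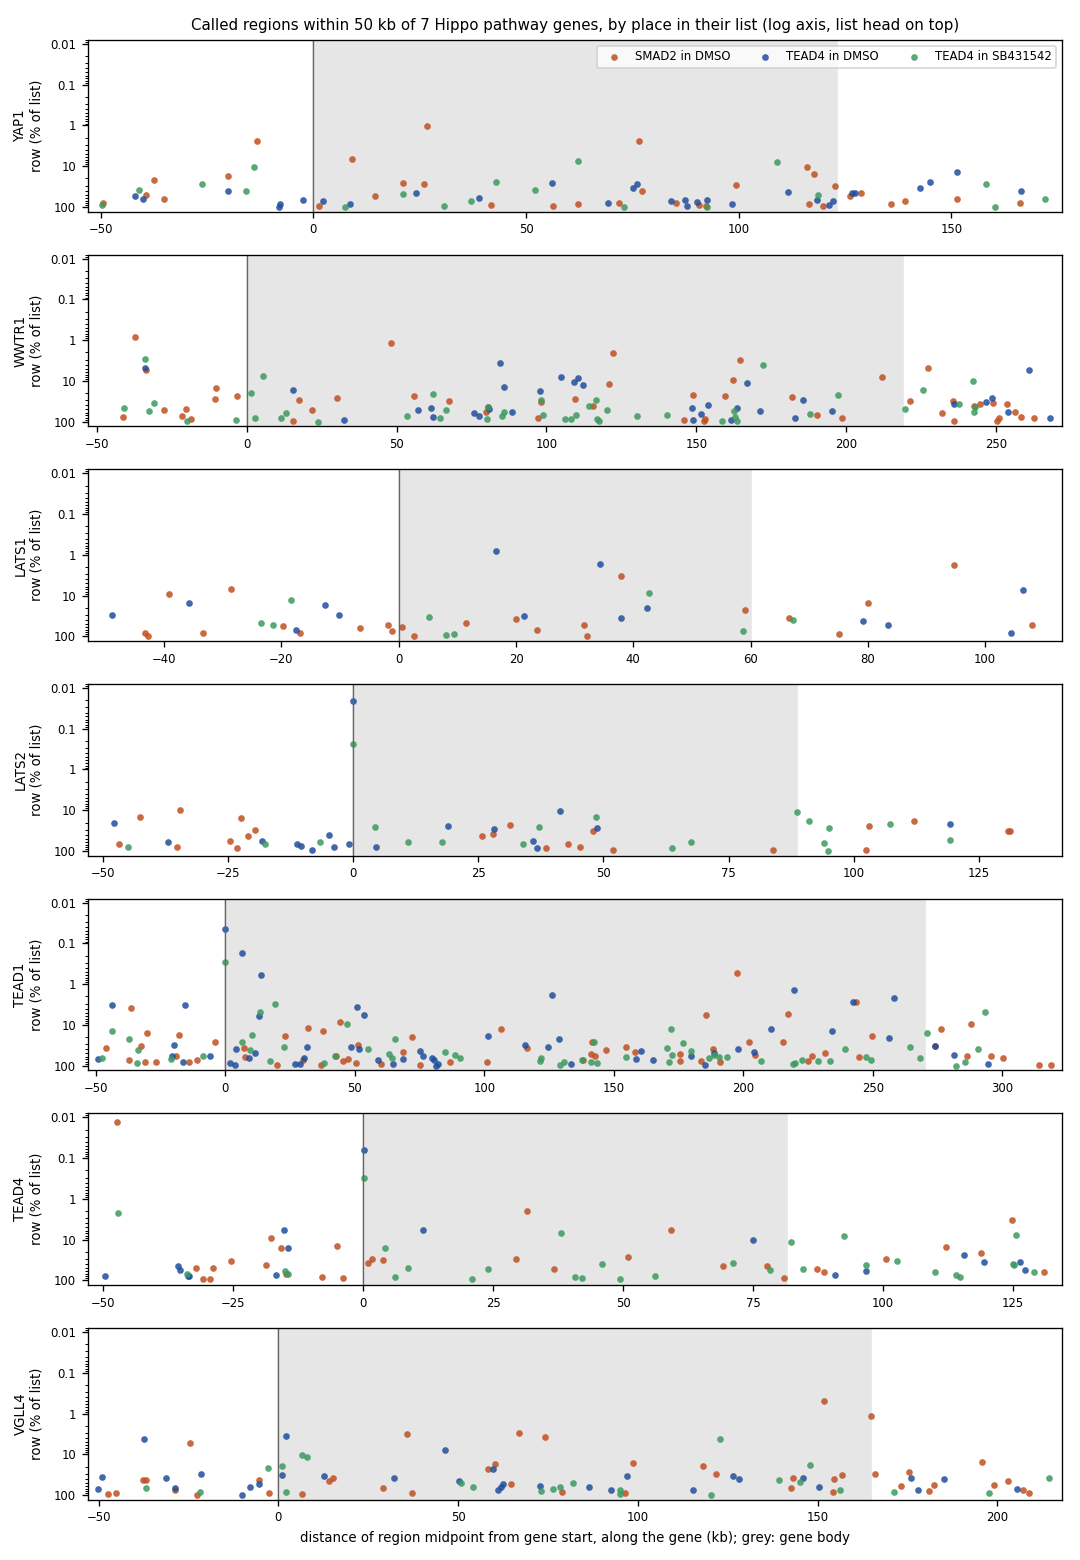
Every called region within 50 kb of the 7 genes, placed by the distance of its midpoint from the gene start (kb, horizontal) and by its row as a percentage of its list (log axis, list head on top), coloured by list, with the gene body in grey. The only points above 0.1% are TEAD4 in DMSO at the starts of LATS2 (0.0214%), TEAD1 (0.0449%) and TEAD4 (0.0643%), and the SMAD2 region upstream of TEAD4 (0.0131%), while all 30 blue points of YAP1 lie below 10%.

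The number of regions around the genes was close to that of their chromosomes in the SMAD2 list, and varied more in the TEAD4 lists. In DMSO, TEAD4 regions numbered 11.8 per 100 kb over the 7 windows and 9.63 per 100 kb over all chromosomes. The chromosomes that carry these genes were denser than that, with 9.97 to 10.5 per 100 kb. TEAD1 had the highest density, 15.1 per 100 kb against 9.97 on chromosome 11, a ratio of 1.52, and YAP1, on the same chromosome, had 13.5, a ratio of 1.35. LATS1 had the lowest, 8.74 against 10.4 on chromosome 6. The ratio at TEAD1 was 1.74 in SB431542 and 1.21 for SMAD2. At the TEAD4 gene the density was 9.37 per 100 kb in DMSO, below the 10.3 of chromosome 12, and 16.5 in SB431542, where the chromosome had 9.33. At WWTR1 it was 10.6 in DMSO and 14.1 in SB431542. Since depth and threshold are unknown and the lists were made differently, these are no measure of how much TEAD4 was bound. SMAD2 density lay between 0.82 times (LATS2) and 1.21 times (TEAD1) that of the chromosome.

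Gene bodies make up 59% of the length of the windows. Of the 201 TEAD4 regions in DMSO 123 (61.2%) lay in a gene body, 3 over a start, 45 upstream and 30 downstream. Under SB431542 the numbers were 136 (66%), 3, 31 and 36, and for SMAD2 145 (53.9%), 0, 69 and 55. At the TEAD4 gene the DMSO list had 2 regions in the body, 8 upstream and 6 downstream, whereas the SB431542 list had 13 in its body, 4 upstream and 12 downstream. WWTR1 had 27 of its 34 TEAD4 regions of DMSO cells in its body and 1 upstream, which is row 13681 described above. Median widths of members and whole lists were 199 and 199 bp for TEAD4 in DMSO. They were 140 and 145 bp in SB431542 and 149 and 149 bp for SMAD2. On average the TEAD4 members of DMSO cells were wider, with 46.5 kb over 201 regions against 60009 kb over 289380.

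Of the SB431542 members, those in the first 10% of rows numbered 18 of 206 (8.74%, 5.6 to 13.4%), against 27 of 201 in DMSO (13.4%, 9.4 to 18.8%). Each interval includes the 10% of any list. Of the 18, 5 were paired with a DMSO region in the first 10% (27.8%): the 3 over gene starts, the region upstream of WWTR1 and row 12861 in TEAD1. The same share over the whole list was not analysed here. By gene, TEAD1 and TEAD4 had 5 of the 18 each, WWTR1 3, YAP1 2, and LATS1, LATS2 and VGLL4 1 each. After the starts and the sites named above, the highest were row 8250 in TEAD1 (chr11:12715026-12715223, 19.2 kb inside), row 10939 in WWTR1 (chr3:149282061-149282258, 172.3 kb inside) and row 10993 in VGLL4 (chr3:11639151-11639348, 123.0 kb inside). YAP1 led with row 19900 (chr11:102043415-102043612, 62.3 kb inside), which overlapped a SMAD2 region at row 358949, and LATS1 with row 23306 (chr6:149996540-149996737, 42.8 kb inside). None of these 5 overlapped a TEAD4 region of DMSO cells. This follows from their choice, since all of the 18 with such an overlap had been named before. The 6.39% of the whole SB431542 list that overlapped one is therefore no comparison for them.

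**Figure D3:**
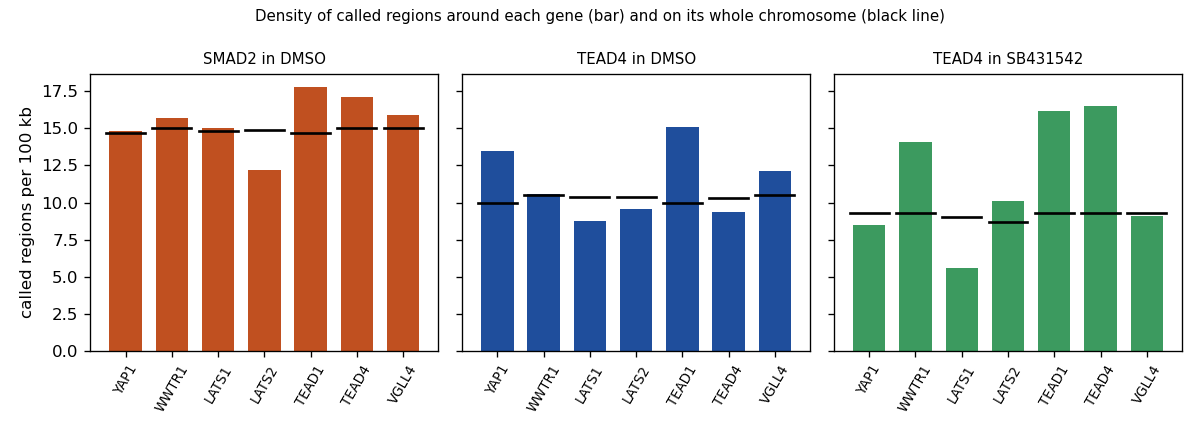
Called regions per 100 kb of window (bars, 1 panel per list) for the 7 genes, with the density of the same list on the whole chromosome as a black line. TEAD1 stands above its line in each panel, at 15.1 against 9.97 for TEAD4 in DMSO, while LATS1 stands below it in both TEAD4 panels.

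The next comparison asked which TEAD4 regions of these genes were called under both treatments. Of the 201 in DMSO, 20 (9.95%, 6.53 to 14.9%) overlapped an SB431542 region, compared with the 5.69% of the whole list. Of the 206 in SB431542, 20 (9.71%, 6.37 to 14.5%) overlapped a DMSO region, compared with 6.39%. The first interval lies above the value of the whole list, and the second reaches just below it. Regions of 1 gene are neighbours and not independent, so the intervals are too narrow. The members and the whole list differed most in the higher rows. In the first 10% of DMSO rows 10 of 27 members (37%, 21.5 to 55.8%) had a partner against 12.8% of all regions there. Beyond it 10 of 174 members did (5.75%, 3.15 to 10.3%), close to the 4.89% of all regions there. Without the first 1000 rows, 6 of 23 members in the first 10% (26.1%, 12.5 to 46.5%) had a partner, against 10.8%. These comparisons are not matched for width or density, on which an overlap of 1 bp depends. Members in the first 10% of DMSO rows were wider on average (10.2 kb over 27 regions, against 8633 kb over 28938). SB431542 regions numbered 12.1 per 100 kb in the windows and 8.73 over all chromosomes. What part of the differences goes with these was not tested.

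By gene, TEAD1 had 6 of 56, TEAD4 5 of 17, WWTR1 3 of 34, and YAP1, LATS2 and VGLL4 2 each of 30, 18 and 32. LATS1 had none. The share at TEAD4 (29.4%, 13.3 to 53.1%) lies above the 5.69% of the whole list, and the interval of each other gene includes it. Among the pairs at TEAD4, those 15.2 and 14.6 kb upstream are neighbours and not independent. SB431542 regions were also dense at that gene, 16.5 per 100 kb against 9.33 on chromosome 12. No test of the difference between genes was made. In 5 pairs both regions were in the first 10% of their lists: those over the starts of LATS2, TEAD1 and TEAD4, the one 13.8 kb inside TEAD1 and the one upstream of WWTR1. In 5 others only the DMSO region was. These were 3 pairs at TEAD1, 1 upstream of TEAD4 (rows 16760 and 155827) and 1 in VGLL4. The remaining 10 pairs had neither region in the first 10%, and no pair had only its SB431542 region there.

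Members without a partner included high ones. Of the 27 in the first 10% of DMSO rows 17 had none, led by the LATS1 rows 2385 and 4817 and the TEAD1 row 5339 (chr11:12821751-12822249). Of all regions in these rows only 12.8% had a partner, against 37% of the members there, so lacking one does not set members apart. A region missing from the other list is not a measured loss of binding. Some were near misses: the TEAD1 region at row 17538 lay 165 bp from an SB431542 region, the VGLL4 region at row 11900 (chr3:11799501-11799749) 407 bp from one and directly beside a SMAD2 region at row 182903, and the WWTR1 region at row 10287 495 bp.

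Overlap between TEAD4 and SMAD2 at these genes was close to that of the whole lists. Of the TEAD4 members in DMSO, 14 of 201 (6.97%, 4.19 to 11.4%) overlapped SMAD2, against 7.67% of the whole list, and of the SMAD2 members 14 of 269 (5.2%, 3.13 to 8.55%) overlapped TEAD4, against 5.29%. With TEAD4 under SB431542 the shares were 9 of 206 TEAD4 members (4.37%, 2.32 to 8.09%, against 5.46%) and 10 of 269 SMAD2 members (3.72%, 2.03 to 6.71%, against 3.39%). Each interval includes the value of the whole list.

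**Figure D4:**
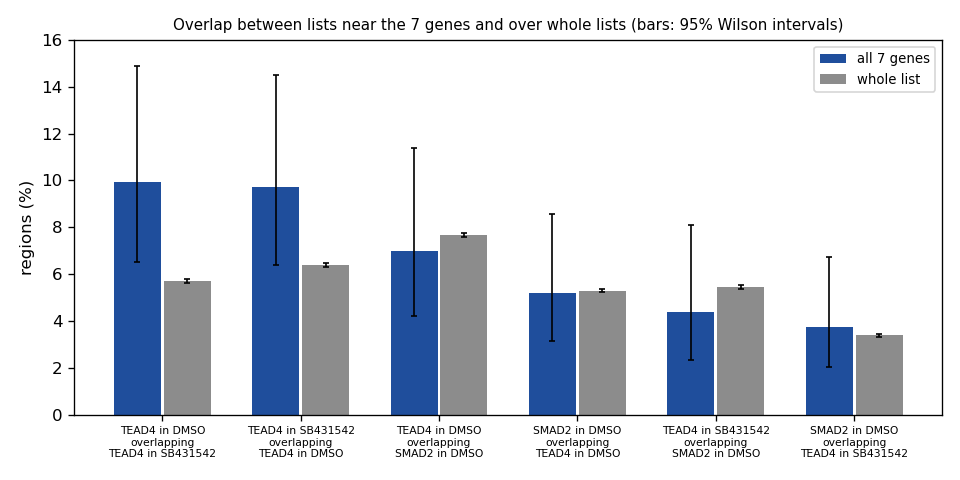
Percentage of regions of one list that overlap another list by at least 1 bp, for the members near the 7 genes (blue) and for the whole list (grey), with 95% Wilson intervals. TEAD4 members overlapped the other TEAD4 list in 9.95 and 9.71% against 5.69 and 6.39%, and the 4 pairings with SMAD2 differ from the whole lists by less than their intervals.

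In DMSO, the highest TEAD4 region of a gene was shared with SMAD2 at YAP1 and at none of the other 6 genes. None of the 27 TEAD4 members in the first 10% of rows overlapped SMAD2, which allows a share of up to 11.1%, so a difference from the 10.2% of all regions there was not detectable with so few. Exact coincidences occurred in LATS1, where both factors were called at chr6:150001401-150001549 (TEAD4 row 104863, SMAD2 row 13530), and in TEAD1, at chr11:12764601-12764699 (rows 197434 and 191294). All starts of the SMAD2 list, like those of the TEAD4 list of DMSO cells, lie on a 50 bp grid, which makes identical ends easier to reach. How often regions of the whole lists coincide exactly was not analysed here. At WWTR1 there were 4 shared regions, of which the highest in the TEAD4 list was row 47451 (chr3:149439051-149439249), 15.4 kb inside the gene. YAP1 and TEAD1 had 3 each, VGLL4 2, and LATS1 and LATS2 1 each. The TEAD4 gene had none among 17. A single TEAD4 region of DMSO cells overlapped both other lists, 1 of 201 members against 0.516% of all. It lies 92.5 kb inside YAP1 (chr11:102073551-102073799) and stands low in every list, at row 193936 for TEAD4 in DMSO, 260054 in SB431542 and 393009 for SMAD2. Seen from SMAD2, 1 of 269 members touched both TEAD4 lists, against 0.302% of all SMAD2 regions. It lies 80.5 kb inside WWTR1 (chr3:149373951-149374049, row 185657), where the TEAD4 regions stood at rows 138790 and 117500.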

How the data were processed

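The labels name 8 samples, 1 per antibody or control and treatment. Region lists of 3 of them were used, and the other 5 samples were not analysed here. Positions in the deposited lists are in bp of hg19, a build named in the submitters' processing notes. What aligner, peak caller, threshold and control library were used, and the depth, is not given in the sources used here, so an absent region was not detected at an unknown depth. Starts are printed raised by 1 bp, and widths are end minus the deposited start. If deposited ends are inclusive, widths rise by 1 bp. Gene bodies in hg19 came with the choice of the 7 genes. The gene start is the 5′ end of that body, and other starts of the gene were not used (RefSeq lists 5 promoters for VGLL4 and 2 each for WWTR1 and LATS1). Strand came from the RefSeq promoter table, and from general knowledge for TEAD1 and TEAD4. No hg19 annotation or sequence was used, so exons, introns, motifs within regions and further pathway genes were not analysed here. Named regions are the highest of each gene and list, those shared between lists and those within 5 kb of a gene start. Other regions named for their rank, such as LATS1 row 4817, were added after their values were seen. Genes, lists and comparisons were chosen with earlier results of these data known. Densities use the span from the first to the last region of each chromosome. Overlap counting and row runs were tested on simulated data with known answers. Computing used matplotlib 3.10.9 for figures and NumPy 2.4.6 with SciPy 1.17.1 under Python 3.11.15.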

Additional observations from a re-analysis of the deposited data

How the results depend on the processing

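Of 87 values recomputed under another flank, overlap rule or list length, 67 stayed within the interval of the reported share or within 1.5 times the reported count. With gene bodies only, 145 SMAD2 and 126 TEAD4 regions of DMSO cells were left, fewer by construction. Without the widest 1% of regions, 1 gene start in place of 3 lay in a TEAD4 region of SB431542 cells, because those over LATS2 and TEAD4 are among the widest. An overlap of 50% of both regions gave 2.99% (TEAD4 of DMSO in SB431542), 2.91% (the reverse), 2.49% (TEAD4 of DMSO in SMAD2), 1.86% (the reverse) and 1.86% (SMAD2 in TEAD4 of SB431542). Midpoints within 100 bp gave 5.97 and 5.83% for the TEAD4 lists. A gap of up to 500 bp gave, in the order of the report, 20.9, 20.9, 21.9, 17.1, 21.4 and 15.2%, where the whole lists gave 14.7, 16.4, 22.1, 15.4, 19.8 and 12.5%. With the first 10% of rows of each list the TEAD4 lists shared 18.5 and 27.8%, and TEAD4 and SMAD2 of DMSO cells 0 and 0% (intervals up to 12.5 and 9.89%). Shares of the whole lists were not computed for the 50% overlap, the midpoints or the first 10% of rows. Those values therefore cannot be set against the whole lists. Flanks of 25 and 100 kb and the first 50% of rows moved no value that far. Leaving out each gene in turn gave 8.15 to 10.7% for TEAD4 of DMSO in SB431542 (lowest without the TEAD4 gene), 8.52 to 10.6% for the reverse, and 10.3 to 15.8% for TEAD4 of DMSO in the first 10% of rows (lowest without TEAD1). No paired analysis was possible because every antibody and treatment has a single library, and none could be left out.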
